A study of Mus musculus with 28 samples.

Results

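The subject is the landscape of an epitope-tagged histone variant, HA-H3.3, in mouse fibroblasts arrested with aphidicolin: 2 ChIP-seq libraries (replicates 1 and 2) of the 28 samples in the series. The libraries were chosen by their labels, as those precipitated with an HA antibody, and their readouts are the share of each region covered by HA-H3.3 peaks and the HA-H3.3 level in RPKM (reads per kilobase of region, scaled to library size). Of 82893 deposited regions, each with a peak of HA-H3.3 or of at least 1 of 6 NuRD subunits, 41569 were covered by HA-H3.3 peaks in both replicates, 5366 in replicate 1 only, 26954 in replicate 2 only and 9004 in neither. No other condition of HA-H3.3 was measured, so the replicates are set beside each other and no test between conditions was possible for the HA-H3.3 libraries themselves.

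The cells were NIH/3T3 Tet-On 3G, an immortalised mouse embryonic fibroblast line carrying a doxycycline-dependent transactivator, with a genotype labelled wild type. For HA-H3.3 they carried a FLAG/HA-H3.3 construct and were kept in aphidicolin, which blocks replicative DNA synthesis, with 2 mg/ml doxycycline. The other libraries used here came from cells without aphidicolin: 1 ChIP library each for CHD4, HDAC1, HDAC2, MBD2/3, MTA1, RBBP4, H3K4me3, H3K27ac and H3K9ac in untransduced cells; 1 sequential ChIP (FLAG, then RBBP4) from FLAG/HA-H3.3 cells with 2 mg/ml doxycycline; MTA1 and RBBP4 ChIP and poly(A) RNA from cells carrying luciferase constructs (control) or H3.3A and H3.3B constructs (labelled H3.3 knockdown). RNA came from 2 control and 3 knockdown clones, whose treatment label also names FLAG/HA-H3.3 cells and 2 mg/ml doxycycline. The tagged H3.3 is expressed from a construct rather than from its own genes, and the labels do not say whether the replicates came from separate cultures, so differences between them may be technical. All 11 fibroblast markers examined had an FPKM of at least 1 in both control clones, with summed FPKM of 7101 and 7907, while 1 of 5 epithelial and 1 of 4 endothelial markers did (summed FPKM 2.29 and 2.50, and 4.78 and 8.43) and no blood, nerve or muscle marker.

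H3.3 differs from the replication-coupled H3 proteins in a few residues and can be placed into chromatin outside S phase. The HIRA complex, with UBN1, CABIN1 and ASF1A, places it at genes and regulatory elements, and ATRX with DAXX places it at repeats. It is known for its enrichment at active promoters and enhancers, along transcribed genes and past their 3′ ends, where nucleosomes turn over. NuRD (nucleosome remodelling and deacetylase) combines the remodeller CHD4 with the deacetylases HDAC1 and HDAC2 and with MTA, MBD and RBBP subunits.

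The promoters below are examples of 5′ ends with and without HA-H3.3, including at least 1 of each kind that goes against the CpG contrast described after them. H3f3a and H3f3b encode H3.3 itself, Asf1a a chaperone that hands H3 to HIRA, Cdt1 a replication licensing factor, Hist1h1e a linker histone and S100a4 a fibroblast calcium-binding protein, and all 6 had HA-H3.3 in both replicates at the 5′ end. Postn (periostin, a matrix protein) and Gatad2b (a NuRD subunit) were transcribed but had no deposited region there, and Hoxa13, a Hox gene of the limb ends, was silent (FPKM 0 in both control clones) and had none either. Each sequence is the 150 bases before the annotated start from RefSeq (build GRCm38.p6), 5′ to 3′ on the gene's strand, with capitals marking GC, CCAAT and TATA boxes on either strand (letters given with the motif counts).
H3f3a, chr1:180813606-180813755, minus strand: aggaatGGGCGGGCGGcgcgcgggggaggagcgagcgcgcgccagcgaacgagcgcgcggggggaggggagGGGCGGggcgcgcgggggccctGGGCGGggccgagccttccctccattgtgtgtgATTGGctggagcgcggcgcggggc
H3f3b, chr11:116024505-116024654, minus strand: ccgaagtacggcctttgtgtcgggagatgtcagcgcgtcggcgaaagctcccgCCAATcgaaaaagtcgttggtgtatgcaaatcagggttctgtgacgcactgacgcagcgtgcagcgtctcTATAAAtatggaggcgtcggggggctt
Asf1a, chr10:53596811-53596960, plus strand: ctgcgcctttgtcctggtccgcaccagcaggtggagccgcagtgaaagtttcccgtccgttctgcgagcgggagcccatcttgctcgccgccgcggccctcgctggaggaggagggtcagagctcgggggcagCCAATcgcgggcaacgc
Cdt1, chr8:122567865-122568014, plus strand: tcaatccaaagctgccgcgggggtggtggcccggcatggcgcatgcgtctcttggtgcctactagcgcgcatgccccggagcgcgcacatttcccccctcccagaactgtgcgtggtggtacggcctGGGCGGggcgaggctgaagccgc
Hist1h1e, chr13:23622559-23622708, minus strand: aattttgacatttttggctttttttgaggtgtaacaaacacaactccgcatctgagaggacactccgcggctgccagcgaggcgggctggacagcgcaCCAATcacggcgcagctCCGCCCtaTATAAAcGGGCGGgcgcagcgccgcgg
S100a4, chr3:90603620-90603769, plus strand: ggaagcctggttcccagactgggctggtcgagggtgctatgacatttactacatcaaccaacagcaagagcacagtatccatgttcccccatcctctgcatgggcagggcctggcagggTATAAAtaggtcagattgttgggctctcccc
Postn, chr3:54359117-54359266, plus strand: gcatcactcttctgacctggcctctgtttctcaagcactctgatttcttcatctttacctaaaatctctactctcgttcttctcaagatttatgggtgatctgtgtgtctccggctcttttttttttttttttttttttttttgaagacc
Gatad2b, chr3:90293031-90293180, plus strand: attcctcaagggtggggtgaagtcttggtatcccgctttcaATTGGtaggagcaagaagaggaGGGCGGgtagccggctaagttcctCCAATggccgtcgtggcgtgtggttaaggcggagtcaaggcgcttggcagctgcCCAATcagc
Hoxa13, chr6:52260881-52261030, minus strand: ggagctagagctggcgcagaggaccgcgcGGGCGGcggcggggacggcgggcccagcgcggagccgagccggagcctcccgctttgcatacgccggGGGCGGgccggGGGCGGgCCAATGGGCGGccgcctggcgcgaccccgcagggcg

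The H3f3a stretch held 24 CpG dinucleotides, H3f3b and Asf1a 16 each, and Cdt1 and Hist1h1e 15 each. The Postn stretch held 2. The Gatad2b stretch was intermediate, with 8 and a GC box although it had no region. Against this, S100a4 held 1 despite its HA-H3.3, and Hoxa13 held 25 without a region. Counted over all genes with a known 5′ end, CpG content differed between the classes. In windows of 300 bases (250 before to 50 after the start), 76.0% of 6563 genes with HA-H3.3 in both replicates had a ratio of observed to expected CpG of at least 0.6, a customary threshold for a CpG island, against 21.5% of 8386 genes with no region at the 5′ end and 49.3% of all 17596. Genes with a subunit peak but no HA-H3.3 peak there (1329) were as CpG-rich, at 77.4%. The contrast was smaller but also present among genes of similar RNA level: at a control FPKM of 10 to 50, 83.0% of genes with HA-H3.3 in both replicates and 57.8% of genes with no region reached 0.6.

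Motifs were searched in the same windows on both strands, counting windows with at least 1 match and allowing motifs to overlap. The GC box GGGCGG, read by SP factors, was present in 67.3% of windows with HA-H3.3 in both replicates, 26.8% with no region and 35.7% of all 32851 promoters of the table. The ETS motif CCGGAAG was present in 19.1%, 3.97% and 8.86%. The cAMP response element TGACGTCA was present in 3.37%, 1.29% and 1.79%. The TATA box, spelled TATAAA, went the other way, with 6.67% at genes with HA-H3.3 in both replicates and 19.5% at genes with no region, and so did the AP-1 motif TGACTCA, with 3.34% and 6.06%. CCAAT boxes were about equally frequent, with 40.4% and 38.5%. Genes with a subunit peak and no HA-H3.3 peak had shares like those of genes with HA-H3.3, with 62.2% for the GC box, 20.4% for the ETS motif and 4.29% for the cAMP response element.

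Regions with HA-H3.3 in both replicates were the longest class and lay mostly in HA-H3.3 peaks. Together they spanned 65.1 Mb, with a median length of 1281 bp against 482 bp where only replicate 1 had a peak, 662 bp where only replicate 2 had one and 310 bp where neither did. The median share of the region lying in peaks was 80.4% in replicate 1 and 98.4% in replicate 2. In regions of a single replicate, the median share in peaks of that replicate was 100%. HA-H3.3 peaks thus largely set the extent of their own regions, so these lengths and shares describe the classes and support nothing further. HA-H3.3 peaks covered 51.3 Mb in replicate 1 and 81.9 Mb in replicate 2. The share of regions with HA-H3.3 in both replicates was larger for longer regions. It went from 0.0662% in the shortest of 7 length classes, up to 250 bp, to 95.9% in the longest, above 3 kb. At 500 to 1000 bp it was 38.3%. A long region has more room for a peak of either library, and HA-H3.3 peaks themselves make up most of a covered region.

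Shared regions were 88.6% of the regions of replicate 1 but 60.7% of those of replicate 2, so replicate 1 was close to a subset of replicate 2. The reads behind the levels were recovered as 13.6 M and 18.4 M in total, and a region of median level held 27 reads in replicate 1 and 46 in replicate 2. The counting error of such a region was therefore 19.2% and 14.7% of its level. The larger number of replicate 2 peaks went with this greater depth, and the part of depth in it was not tested. In bulk chromatin a lower level can mean fewer cells carrying HA-H3.3 or fewer tagged nucleosomes per cell, and these cannot be told apart.

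The levels went with the calls in each replicate. Where only replicate 1 had a peak, the median level was 2.97 RPKM in replicate 1 and 2.04 in replicate 2. Where only replicate 2 had one, it was 1.56 and 2.83. Regions in both replicates had medians of 3.65 and 3.80 RPKM, and those with subunit peaks alone 1.12 and 1.09. Because peaks were called on the same reads, these orders describe the classes and support nothing further.

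**Figure D1:**
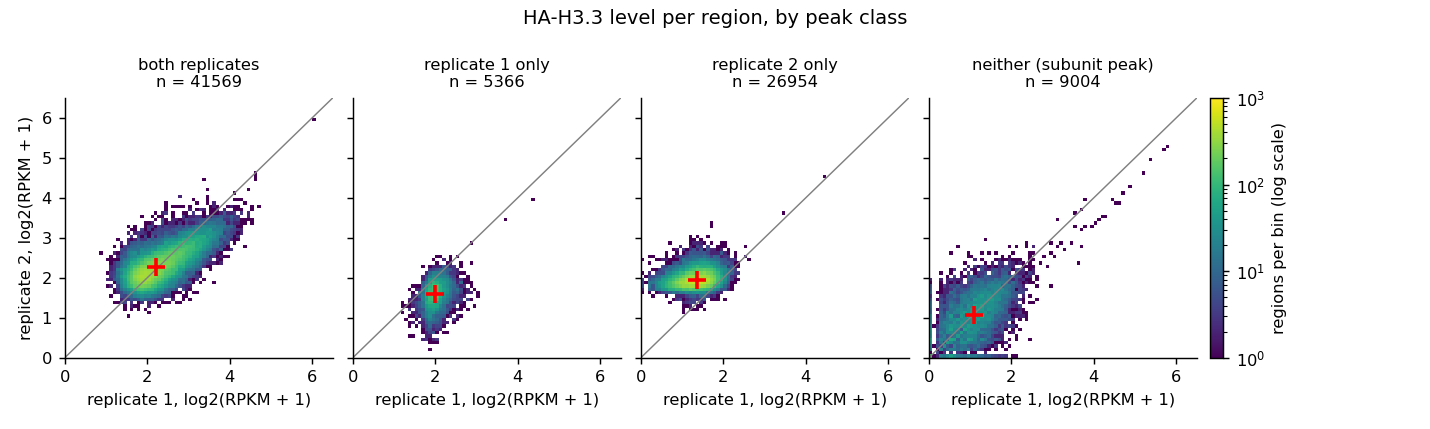
HA-H3.3 level of every region as log2(RPKM + 1) in replicate 1 (horizontal) against replicate 2 (vertical), in 1 panel for each peak class; colour gives the number of regions per bin on a log scale, the red cross the class medians and the grey line equal levels. The shared regions lie along the diagonal around 3.65 and 3.80 RPKM, and most of the 26954 regions of replicate 2 only lie above it.

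Within the 41569 shared regions the levels of the replicates differed by an SD of 0.48 on the log2 scale around a median of 0.00, and the counting error alone gave a median SE of 0.24. The difference passed 2 counting errors in 32.4% of regions and passed 2-fold in 4.02%. The rank correlation of the levels was 0.64 over these regions, which share libraries and are not independent. The differences had a direction by place in the gene: regions at annotated promoters (median log2 ratio -0.08, 42.4% higher in replicate 2) and at no gene feature (-0.08, 42.7%) were more often lower in replicate 2, introns were near equal (0.06, 55.0%), and regions at exons or 3′ UTRs (0.23, 67.1%) and downstream of genes (0.18, 63.2%) were more often higher in it.

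The highest shared levels fell on regions that were also high in the subunit libraries, and after these on a small set of gene loci (coordinates are mm9). The top region was Rn45s, the multicopy ribosomal RNA precursor gene, chr17:39979842-39985867, at 66.3 and 60.1 RPKM. It was followed by 2 intronic regions of Sfi1, a centrin-binding protein gene, at chr11:3080588-3083035 (23.7 and 24.3) and chr11:3052004-3069994 (23.0 and 22.9). Next came intergenic regions 60633 bp from Axin2 (24.0 and 21.6), 284062 bp from Pex2 (20.8 and 17.5) and 23983 bp from Rpp21 (16.6 and 16.1), and an intronic region of Cdk8 (16.2 and 15). All 7 also reached 7 RPKM in every one of the 6 subunit libraries. Of 52 regions that did so, 9 had HA-H3.3 peaks in both replicates and 38 in neither, and leaving them out changed the shared regions to 41560.

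The other regions among the 10 highest were not high in all subunit libraries. Ctnnal1, the gene of an alpha-catenin relative, held a promoter region at chr4:56877006-56879941 with 17.5 and 14.8 RPKM and an exonic region at chr4:56841643-56843287 with 18.6 and 14.1. An intronic region of Sdccag8, the gene of a centrosomal protein, at chr1:178942742-178945978 had 19.3 and 14.0. Among regions without gene feature, those nearest in level were chr16:5134018-5137752, 1443 bp from Ppl (21.7 and 13.1), and chr2:122201342-122202533, 6687 bp from Shf (17.6 and 12.7). Further down the order, named after their values were seen, were Nfib (intron, 15.8 and 12.9), the nuclear long non-coding RNA gene Malat1 (15 and 12.6), Bnc2 (intron, 17.4 and 12.1) and a region 21317 bp from Nfkbia, the gene of a NF-kB inhibitor (16.8 and 12.0). Replicate 1 was the higher in each of these regions from Ctnnal1 on.

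The longest shared regions were domains of 15526 to 18191 bp within or over genes. The longest covered the listed locus of Neat1, the non-coding RNA of paraspeckles, and reached Frmd8 (8.48 and 7.46 RPKM). Next was the 17991 bp intronic region of Sfi1, high in all subunit libraries. Regions of 17729 bp at Smtn and Selm (4.54 and 9.38), 16523 bp at Midn (7.59 and 7.73), 16370 bp at Pdgfra (6.61 and 10.1), 15811 bp at Timp3 and Syn3 (6.14 and 6.27) and 15698 bp at Col1a1 (6.09 and 15.2) followed, and the eighth, of 15526 bp, lay 829 bp from Mir29b-1 (7.30 and 10.3). The Pdgfra and Timp3 regions took up only part of loci of 45914 and 49094 bp. Smtn encodes smoothelin, Pdgfra a growth factor receptor, Timp3 a metalloproteinase inhibitor and Col1a1 a chain of collagen I. Replicate 1 was the higher at Neat1 and Sfi1, and replicate 2 at the other regions, by little at Midn and Timp3.

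Regions of a single replicate had lower levels, apart from those high in all subunit libraries. For replicate 1 only, the highest were an Sfi1 promoter region (19.9 and 14.2), a region 46434 bp from Polr3k (12.4 and 10.1) and 1 of 661 bp, 69840 bp from Zfp825 (7.47 and 1.98). For replicate 2 only, they were an Sfi1 intron (21.2 and 22.9), Ppia, which encodes cyclophilin A (2.26 and 9.62), and an exonic region of Sned1 (2.20 and 8.77). The first 2 regions of replicate 1 and the first of replicate 2 were again at 7 RPKM or more in all 6 subunit libraries. Other regions of replicate 2 only at exons, 3′ UTRs or downstream, named after their values were seen, were at Sparc (1.67 and 7.03), Nktr (1.82 and 6.72) and Ccng1 (1.47 and 6.05).

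HA-H3.3 regions were spread over introns and intergenic sequence as well as promoters. Of the shared regions, 15.8% carried the deposited promoter features (5′ UTR or within 3 kb upstream), 44.2% lay in introns only, 3.78% in exons or 3′ UTRs, 4.77% within 5 kb downstream only and 31.5% at no gene feature. Regions with HA-H3.3 in neither replicate had more promoters (25.8%) and fewer introns (32.9%), and over all regions the shares were 14.3% and 44.5%, close to those of the shared regions. With the 5′ UTR feature alone, promoters made up 3.16% of shared regions. Regions of replicate 2 only had fewer promoters (8.42%) and more exons or 3′ UTRs (7.62%) and downstream sequence (8.58%). Of 11827 promoter regions in the whole set, 55.5% were covered in both replicates, 61.2% in replicate 1 and 74.7% in replicate 2. The deposited features follow the centre of a region: 99.9% of regions centred in a 3 kb upstream window carried the upstream feature, against 8.77% of those that only overlapped one, so long regions over a promoter are often listed as intronic. Among the nuclear chromosomes the share of regions in both replicates ranged from 47.6% to 52.6%, and the X chromosome had 51.0%.

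Active histone marks, measured in unarrested cells, accompanied less than 50% of HA-H3.3 regions. H3K4me3, a mark of promoters, had a peak in 38.5% of shared regions, 25.2% of regions of replicate 1 only and 10.3% of replicate 2 only. H3K27ac, a mark of active promoters and enhancers, had one in 23.9%, 7.04% and 5.26%. H3K9ac had one in 25.5%, 13.0% and 5.35%. Any overlap counted, a longer region has more room for a mark peak, and the median lengths of these classes were 1281, 482 and 662 bp. Region length was not matched. Taking all regions of a replicate, H3K4me3 accompanied 37.0% in replicate 1 and 27.5% in replicate 2. H3K27ac accompanied 10.9% of shared regions at a deposited score of at least 100, and 2.34% where at least 50% of the region had to lie in peaks. Regions with a subunit peak and HA-H3.3 in neither replicate had more H3K4me3 (47.9%) and H3K9ac (34.5%) and less H3K27ac (17.9%) than the shared regions. Over all regions the shares were 29.5%, 19.1% and 16.1%. Of the shared regions, 22818 (54.9%) had none of the 3 marks, and their median levels were 3.26 and 3.58 RPKM. The 6467 regions with all 3 marks (15.6%) had 4.79 and 4.52, and 93.4% of them had a NuRD subunit peak, against 21.5% of those with no mark.

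Marks and levels also went together away from promoters. The 5021 shared regions at no gene feature that had a mark peak had median levels of 4.67 and 4.14 RPKM, and the 8063 without one had 3.38 and 3.42. At annotated promoters the 5751 marked regions had 4.12 and 3.97, and the 808 unmarked ones 2.95 and 3.56. The 2175 shared regions with H3K27ac as the sole mark (5.23%) had 4.00 and 4.37, and 3.63% of them were promoters. In each of these comparisons both replicates gave the same order, but regions of a library are not replicates and no test was made. Marked regions were also longer, with medians of 1547 against 1000 bp at no gene feature and 1538 against 1086 bp at promoters. Length was not matched here either.

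**Figure D2:**
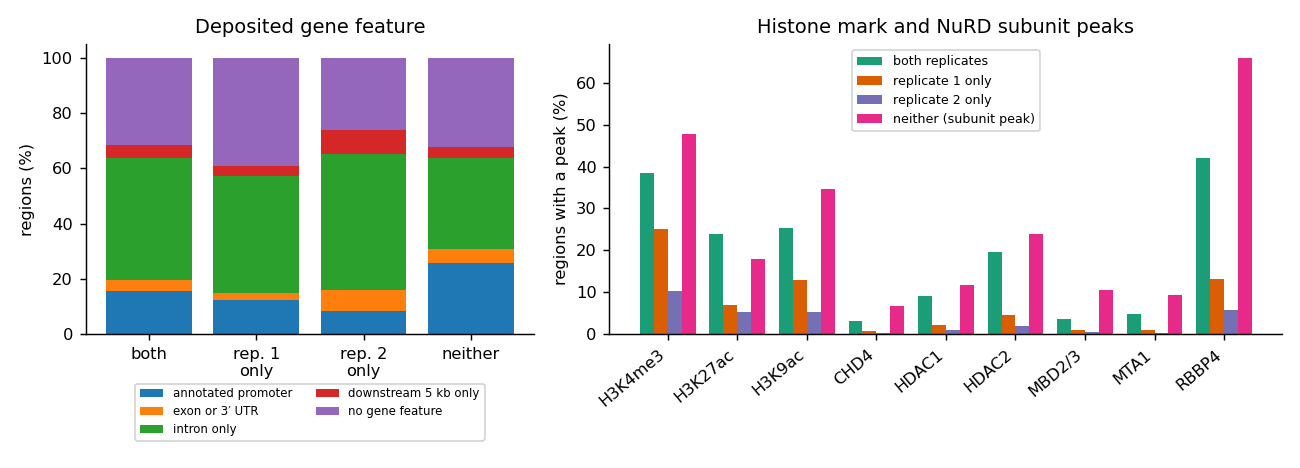
Left, share of regions (percent) with each deposited gene feature, in 1 stacked bar for each HA-H3.3 peak class; right, share of regions (percent) with a peak of each histone mark or NuRD subunit, where every region of the class with HA-H3.3 in neither replicate has a subunit peak by construction. H3K4me3 has a peak in 38.5% of the shared regions and in 10.3% of those of replicate 2 only.

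NuRD subunit peaks lay mostly in HA-H3.3 regions of both replicates. A peak of at least 1 subunit was present in 44.7% of shared regions, 14.9% of regions of replicate 1 only and 7.04% of regions of replicate 2 only. Over all regions of a replicate the share was 41.3% in replicate 1 and 29.9% in replicate 2, and with coverage of at least 0.5 required of both kinds of peak it was 15.9% of shared regions. RBBP4, a histone-binding subunit, accounted for most of these, with 42.0% of shared regions, followed by HDAC2 with 19.7%, HDAC1 with 9.18%, MTA1 with 4.84%, MBD2/3 with 3.59% and CHD4 with 3.09%. Read from the subunits, HA-H3.3 in both replicates was found at 73.6% of 11095 HDAC2 regions, 72.9% of 5238 HDAC1, 68.0% of 25717 RBBP4, 66.7% of 3017 MTA1, 63.7% of 2017 CHD4 and 56.8% of 2629 MBD2/3. MBD2/3 had the largest share with no HA-H3.3 peak, 36.5%.

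Where more subunits had a peak, HA-H3.3 was more often present, up to 5 subunits, and higher. A longer region has more room for peaks of several libraries, and region length was not matched in this comparison. HA-H3.3 covered 50.3% of regions with 1 subunit in both replicates, 73.9% with 2, 81.8% with 3, 87.6% with 4, 88.1% with 5 and 85.2% of 108 regions with all 6. The median level went from 2.61 and 2.85 RPKM with 1 subunit to 5.99 and 5.39 with 6. Regions without any subunit peak are in the set because of an HA-H3.3 peak, so their 43.7% has another denominator. Over all 82893 regions, which share mapping and region length, the rank correlation of the HA-H3.3 level with the RBBP4 level was 0.29 in replicate 1 and 0.08 in replicate 2, and with the H3K4me3 level 0.29 and 0.08.

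The sequential ChIP, which retains chromatin bound first by FLAG and then by RBBP4 antibodies, gave 6 deposited peaks. Of these 4 lay in regions with HA-H3.3 in both replicates (66.7%, exact binomial 95% interval 22.3% to 95.7%, counting error only). The share was 50.1% over all regions and 68.0% over regions with an RBBP4 peak, so the count is near that of RBBP4 regions. They were at Aurkb, a mitotic kinase gene (6.70 and 7.55 RPKM of HA-H3.3), Fam64a (3.64 and 3.39), Mcph1, which encodes microcephalin (2.34 and 3.62), and H2afx, which encodes the histone variant H2A.X (5.75 and 6.15). The peak at Kif2c, a mitotic kinesin gene, lay in a region with HA-H3.3 in replicate 2 only (2.16 and 2.51) and peaks of all 6 subunits. The remaining peak, at the phosphatase gene Cdc25c, was in a region with HA-H3.3 in neither (1.71 and 1.03). Among all regions their HA-H3.3 levels ranged from the percentile 28.4 to 93.4 in replicate 1 and 5.42 to 98.2 in replicate 2, while their RBBP4 levels lay between the percentiles 92.5 and 99.9.

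RBBP4 and MTA1 peaks in control and knockdown cells could also be placed on the HA-H3.3 regions, with 1 library for each. Of the 3561 RBBP4 peaks in control cells, 1933 (54.3%) overlapped regions with HA-H3.3 in both replicates, and of the 2919 in knockdown cells 1897 (65.0%) did. For MTA1 it was 497 of 1703 (29.2%) and 488 of 904 (54.0%). Among peaks with a deposited score of at least 100 the RBBP4 shares were 72.0% (778 of 1080) in control and 71.4% (590 of 826) in knockdown cells. The MTA1 shares at that score were 51.8% (99 of 191) and 68.3% (69 of 101). At that score the counts in shared regions, like the list totals, were lower in knockdown cells. Over all scores the counts in shared regions were near equal, and the list totals differed mainly outside the regions. MTA1 peaks outside every region numbered 948 (55.7%) in control and 174 (19.2%) in knockdown cells, and RBBP4 peaks 987 (27.7%) and 446 (15.3%). The differences in share over all scores are thus differences in the list totals, not in the counts in shared regions. Near-equal counts do not mean the same peaks. Of the control peaks in shared regions, 865 (44.7%) for RBBP4 and 156 (31.4%) for MTA1 overlapped a knockdown peak. In regions with HA-H3.3 in neither replicate these shares were 44.9% and 32.6%. Why the lists differed, inside or outside the regions, was not tested.

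HA-H3.3 at 5′ ends followed whether a gene was transcribed. A gene was placed by any region within 1 kb of its 5′ end, for 17596 genes with a known end, and 6563 of them (37.3%) had HA-H3.3 in both replicates. Of genes with a mean control FPKM below 0.1, 247 of 6766 (3.65%) had it. The share was 24.9% at 0.1 to 1, 56.3% at 1 to 10, 70.2% at 10 to 50 and 73.3% above 50 (954 of 1302). Each replicate alone gave the same order, from 4.02% to 77.3% in replicate 1 and from 5.50% to 80.9% in replicate 2. The RNA came from unarrested cells of other clones, so presence was compared between cell populations.

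The level at an occupied 5′ end varied little with expression. Among genes with HA-H3.3 in both replicates the median level went from 3.20 and 3.71 RPKM below 0.1 FPKM to 4.58 and 4.23 above 50. The rank correlation of level and FPKM over these 6563 genes was 0.10 in replicate 1 and 0.07 in replicate 2. Median FPKM of the genes with HA-H3.3 in both replicates was 13.3 in control clone 1 and 13.0 in clone 2. Genes with HA-H3.3 in 1 replicate only had 7.26 and 7.90, genes with subunit peaks alone 10.7 and 10.8, and genes with no region 0 and 0.00444.

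Exceptions existed in both directions. Of the 247 genes below 0.1 FPKM with HA-H3.3 in both replicates, 174 were protein-coding (2.96% of 5888) and 73 were long non-coding RNA genes (8.31% of 878). Conversely 46 genes above 50 FPKM (3.53%) had no region at the annotated 5′ end. Only the outermost end of each locus was taken, so a region at a start inside the locus was not counted. Examples chosen after their values were seen are Fth1, the ferritin heavy chain gene, at 1410 and 2350 FPKM, Gnas at 851 and 1237, and Cox6b1, a respiratory chain subunit gene, at 201.6 and 203.7. Fth1 nevertheless had 53.5% and 58.5% of its locus in HA-H3.3 peaks, and Cox6b1 had 0% in both replicates.

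Along genes of at least 10 kb, HA-H3.3 peaks had a maximum around the 5′ end in both replicates, and a further one at the 3′ end that was much larger in replicate 2. In the last kilobase before the 5′ end, peaks covered 42.1% of sequence in replicate 1 and 48.6% in replicate 2 for genes above 50 FPKM, and 1.74% and 2.88% for genes below 0.1. In the middle of the gene the highly expressed genes had 8.17% and 16.3%. In the first kilobase after the 3′ end they had 13.4% and 47.5%. H3K4me3, by comparison, covered 84.0% of the last upstream kilobase and 1.15% of the last of 20 equal bins of the gene.

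**Figure D3:**
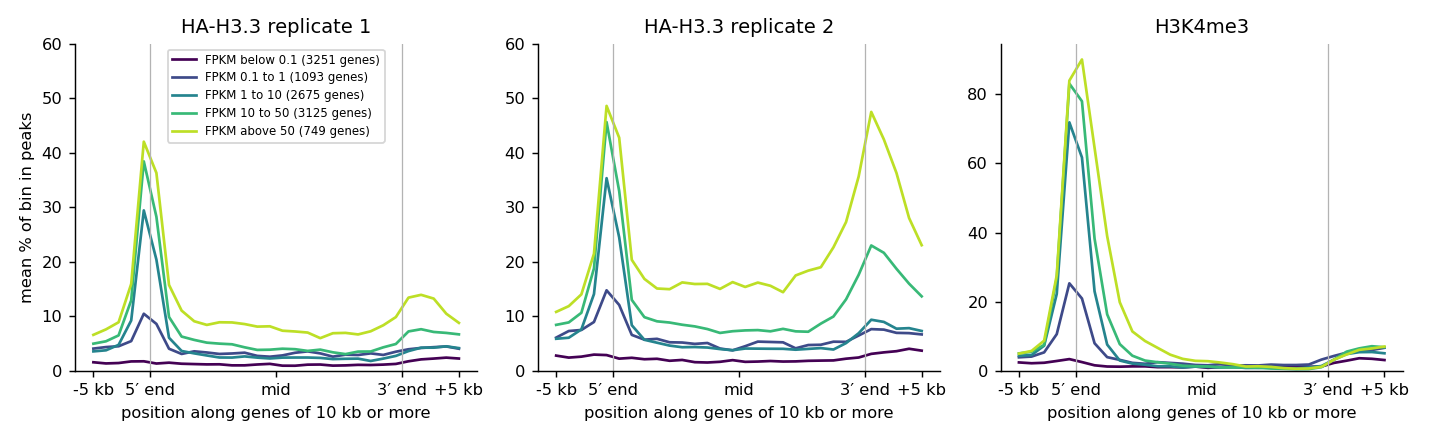
Mean share of each bin in peaks (percent) along genes of at least 10 kb, with 5 bins of 1 kb on either side and 20 bins over the gene, for HA-H3.3 replicate 1, replicate 2 and H3K4me3; each line is an expression class by mean control FPKM. Replicate 2 reaches 47.5% just after the 3′ end of genes above 50 FPKM, against 13.4% in replicate 1.

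The 3′ signal was more frequent at more highly expressed genes in both replicates. A region within 1 kb of the 3′ end and away from known 5′ ends was covered in 3.66% of genes below 0.1 FPKM in replicate 1 and 5.81% in replicate 2. It was covered in 14.2% and 30.5% of genes at 10 to 50, and 26.4% and 56.3% above 50. For the regions themselves, those with a deposited promoter feature were left out as well, which gave 540 at genes above 50 FPKM. Of these, 36.3% were covered in both replicates, 0.185% in replicate 1 only and 63.1% in replicate 2 only, with median levels of 1.58 and 3.44 RPKM. Of the 540, 4.07% had an H3K4me3 peak and 7.78% any subunit peak. Regions near 5′ ends and promoters were left out, so low shares are partly set by that choice. With the same choice, regions at genes below 0.1 FPKM had 17.7% and 34.7%. Because the peaks were called on the same reads, these levels describe the calls and add nothing to them. The relation of the gap between the replicates to depth or library preparation was not tested.

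A small number of genes were covered over most of their length. Of 13869 genes of at least 10 kb, 21 had at least 50% of the gene in peaks in both replicates, and 20 of these had a control FPKM of at least 10. At a threshold of 25%, 172 of 225 genes (76.4%) had that expression, against 34% of all genes of this length. The other extreme was common, since 5446 genes (39.3%) had no coverage in 1 or both replicates. Over the 8089 genes with an FPKM of at least 1, the rank correlation of coverage between replicates was 0.86, and that of coverage with FPKM was 0.27 in replicate 1 and 0.36 in replicate 2.

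The most covered gene was Vasn, which encodes vasorin, with 86.1% and 99.1%. Pdgfra had 85.6% and 92.4% of its 45914 bp, Amotl2, an angiomotin-family gene, 81.1% and 96.4%, and the matrix gene Thbs1 (thrombospondin) 76.1% and 83.9%. Col1a2, the second chain of collagen I, had 56.1% and 74.7%, Loxl1, a collagen cross-linking enzyme, 61.5% and 91.1%, and Zyx (zyxin, a focal adhesion protein) 62.5% and 83.3%. Scd2, a fatty acid desaturase, had 63.7% and 87.1%, and Rara, a retinoic acid receptor, 50.6% and 78.5%. The exception in expression was Gm15441, with 67.6% and 67.4% covered at an FPKM of 0.0720 and 0.369.

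**Figure D4:**
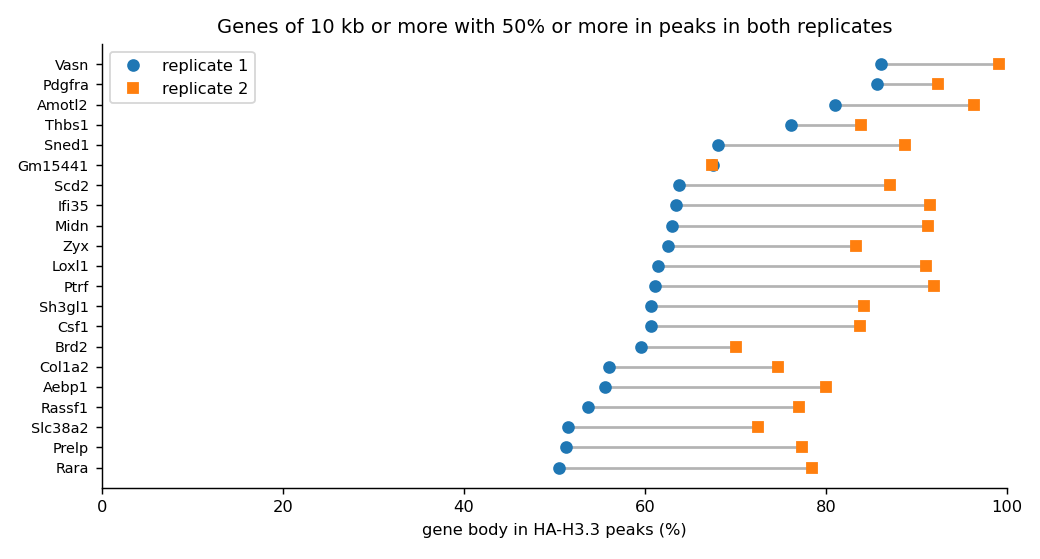
Share of the gene in HA-H3.3 peaks (percent) for the 21 genes of at least 10 kb with 50% or more in both replicates, in order of the lower value; circles are replicate 1, squares replicate 2 and the line joins them. Replicate 2 is the higher for every gene but Gm15441, and Vasn is the highest with 86.1% and 99.1%.

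For gene lists, the count is of genes with HA-H3.3 in both replicates at a known 5′ end, with genes ordered by the lower of both replicates, to be read against 37.3% of all genes and 70.9% of the 5415 genes at an FPKM of 10 or more. Genes of the H3.3 pathway were occupied throughout, with 12 of 12 and median levels of 5.98 and 4.89 RPKM. The chaperone gene Asf1a was highest (15.3 and 9.92), followed by Hira (9.53 and 8.13). Asf1b, the paralog of Asf1a, had 2.68 and 2.82, and the ATRX gene 2.77 and 2.73. H3f3a had 3.49 and 4.67, and H3f3b 7.69 and 4.64, beside medians of 4.16 and 4.08 over all occupied genes. The NuRD subunit genes had 8 of 11, with Rbbp4 (5.86 and 6.71) and Mta2 (5.2 and 6.69) highest. Mta1 (1.52 and 0.936) had a subunit peak without an HA-H3.3 peak, and Gatad2b and the neuronal Chd5 had no region.

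Immediate early and serum response genes, which fibroblasts switch on within minutes of growth factor addition, had HA-H3.3 at 16 of 18 5′ ends. Many also had a large share of the gene in peaks. Jun had 7.60 and 7.80 RPKM at its 5′ end and Fosl2, also encoding an AP-1 subunit, 6.62 and 6.55. Btg2, an antiproliferative gene, was at 1.74 and 2.28 with a peak in replicate 2 only. The median coverage of the gene over the list was 30.5% and 53.1%, against 4.54% and 9.01% for genes of FPKM 10 or more. Gene length was not matched here or in the lists below, and the region at the 5′ end alone can fill much of a short gene. At Jun that region, chr4:94716455-94721757, overlapped most of the locus, chr4:94715727-94718913. Dusp1, a MAP kinase phosphatase gene, had 85.3% and 99.6% of its length in peaks, Zfp36 79.9% and 99.6%, and Junb 79.7% and 98.0%. Fosb (31% and 40.7%) was covered at an FPKM of only 0.912 and 1.38. Others were hardly covered, with 0% in both replicates at Egr3, 0.121% and 0.318% at Klf4, 2.37% and 2.01% at Egr2, and 0% and 8.49% at Klf2.

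Genes of the fibroblast matrix and cytoskeleton showed the same combination. The matrix list had 13 of 16, with median coverage of the gene of 24.1% and 47.6%, and the cytoskeletal list 13 of 15, with 23.7% and 46.8%. S100a4 (8.18 and 6.45 RPKM), the fibroblast S100 protein gene, and Twist2 (6.07 and 7.13), a mesenchymal transcription factor gene, had the highest 5′ ends of the matrix list. Col3a1 (2.83 and 1.2), of collagen III, was the lowest, with a peak in replicate 1 only, yet 43.9% and 61.8% of the gene was covered. Postn had no region at its 5′ end and 1.93% and 3.37% of the gene covered at an FPKM of 49.3 and 97.2, and Col5a2 had 1.25% and 2.90% covered at 74.4 and 59.8. Among cytoskeletal genes Tpm4 (tropomyosin, 8.17 and 5.92) and smooth muscle actin Acta2 (6.90 and 5.91) were highest by the lower replicate, and Cnn1 (calponin, 1.52 and 2.90) lowest with a peak in replicate 2 only.

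Genes of basal metabolism were occupied at 19 of 20 5′ ends, with medians of 5.53 and 4.74 RPKM. Hk2 (hexokinase, 8.76 and 8.12) and Pgk1 (phosphoglycerate kinase, 10.9 and 6.81) were highest, and Eno1 (enolase) was at 1.87 and 1.98 with a peak in replicate 2 only. Ldha (lactate dehydrogenase) illustrates how the replicates differed inside genes, with 2.23% of its length covered in replicate 1 and 47.9% in replicate 2. Ribosomal protein genes had 15 of 21, a share near that of all well expressed genes, and 5 more had only subunit peaks. Rpl10a (11.8 and 7.89) and Rpl14 (9.10 and 6.87) were highest, and Rps3 had 0.879 and 0.217. Their median gene coverage was 13.6% in replicate 1 and 55.4% in replicate 2.

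**Figure D5:**
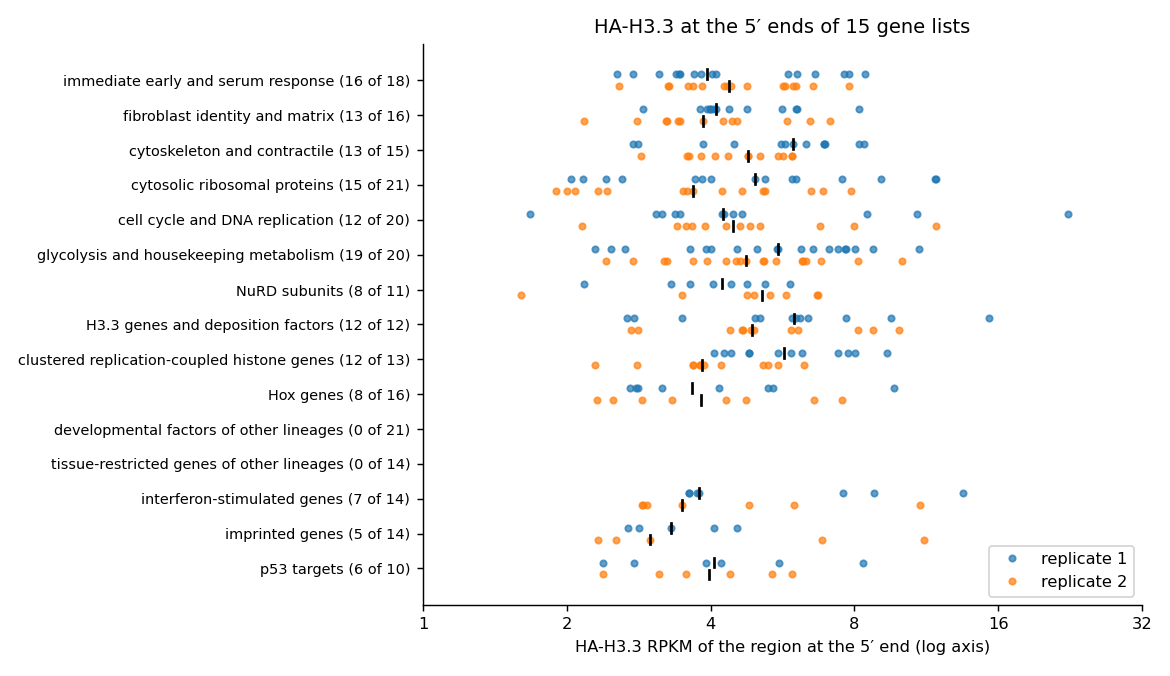
HA-H3.3 level (RPKM, log axis) of the region at the 5′ end of each gene with HA-H3.3 in both replicates, for 15 gene lists, with replicate 1 above replicate 2; black bars are medians and numbers in parentheses give such genes out of those with a known 5′ end. Cdt1 in the cell cycle list stands apart at 22.4 and 11.8 RPKM, and the lists of developmental and tissue-restricted genes have no point.

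Cell cycle and DNA replication genes had 12 of 20, and the list held the highest 5′ end of all lists. Cdt1 had 22.4 and 11.8 RPKM, and E2f1, the transcription factor that drives S phase genes, 10.8 and 7.99. Mcm3, a subunit of the replicative helicase, had 0.383 and 0.283 with subunit peaks only, and so did Mcm2 (1.60 and 1.32), Ccnb1 (cyclin B1, 0.615 and 0.530) and Mki67 (1.80 and 2.17). Median gene coverage was 2.88% and 4.31%. The expression values come from cells without aphidicolin and the HA-H3.3 values from arrested ones, and the part of this difference was not tested.

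The clustered histone genes, which are transcribed in S phase and whose mRNAs mostly lack poly(A) tails, had HA-H3.3 at 12 of 13 5′ ends. The median level was 5.71 and 3.84 RPKM at a median poly(A) FPKM of 0.877 and 0.950. Hist1h1e (9.37 and 5.53) and Hist1h1b (8.03 and 6.29), both linker histone genes, were highest by the lower replicate, with 92.8% and 97.4% and with 92.9% and 100% of the gene covered. Hist1h2bg was lowest (4.07 and 2.29). Replicate 1 was higher than replicate 2 at all 12 occupied ends. Hist1h2ab and Hist1h3b share 1 region, and the near-identical copies of these genes may share reads.

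Genes of other lineages had none at their 5′ ends. Of 21 developmental factors and 14 tissue-restricted genes with a known 5′ end, 0 and 0 had HA-H3.3 in both replicates. Most were hardly transcribed, with a mean control FPKM of at least 1 at 2 of 24 and 1 of 23 members. Over all genes below 0.1 FPKM the share was 3.65%, so these counts are near that share. Along the gene, 1 and 3 members had some coverage in both replicates. The only regions at known 5′ ends in these lists were subunit regions at Krt14, an epidermal keratin gene (0.813 and 2.00 RPKM), and the olfactory receptor gene Olfr15 (0.939 and 0.694). Nkx2-5, a heart factor gene with an FPKM of 12.0 and 8.34, also had no region. Hox genes, which keep a positional code in fibroblasts, had 8 of 16. Hoxa3 (9.67 and 7.53) and Hoxa2 (5.40 and 6.59) were highest, and Hoxa11 (1.32 and 1.56) had only a subunit peak and an FPKM of 0 in both control clones.

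Lists with mixed expression were occupied in part. Interferon-stimulated genes had 7 of 14, with Ifi35 (13.5 and 11.0 RPKM) and Ifit2 (7.58 and 5.99) highest and Stat2 (1.67 and 1.65) with a peak in replicate 1 only. Irf7, an interferon regulatory factor gene, had 0% of its length covered in replicate 1 and 96.1% in replicate 2 at an FPKM of 0.0505 and 0.0844. Imprinted genes had 5 of 14, with the non-coding RNA gene Airn (4.53 and 6.84) and Nnat (4.07 and 11.2) highest and Dlk1 (0.690 and 0.893) with a subunit peak only. Targets of p53 had 6 of 10, led by Bbc3 (5.55 and 5.91), an apoptosis gene, and Sesn1 (8.35 and 5.36), while Ccng1 had 1.30 and 0.871.

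The RNA libraries gave the only comparison with a test, knockdown against control at genes with HA-H3.3. The targeted genes were lower in every knockdown clone. For H3f3a the control clones gave 128.3 and 143.5 FPKM and the knockdown clones 71.8, 35.6 and 5.05 (log2 change -2.44, SE 1.04, adjusted p = 0.516, limma). H3f3b had 249.4 and 237.1 against 144.4, 104.3 and 51.7 (-1.39, SE 0.45, adjusted p = 0.469, limma). Neither group overlapped the other, but the knockdown clones differed widely and neither gene passed the adjusted threshold of 0.05.

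No gene with HA-H3.3 at its 5′ end was called, which in 2 against 3 clones of uneven knockdown does not show that their expression was unchanged. Of 5907 such genes tested by limma, 0 passed an adjusted p of 0.05, against 0.0341% of all 11728 genes tested (4 genes, none with a known 5′ end). At an unadjusted p under 0.05 there were 565 (9.56%), against 9.81% of all genes, so the share was near the background. The median log2 change of these genes was -0.11, with -0.15, -0.08 and -0.06 in the 3 knockdown clones against the control mean. It was -0.08 for genes with HA-H3.3 in 1 replicate only, -0.12 with subunit peaks alone, -0.06 with no region and -0.10 over all genes. Genes covered to at least 25% of their length in both replicates (204 tested) had a median of -0.11 with 0 called.

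Among the lists, cell cycle genes had the lowest median in knockdown clones, -0.81, with 0 of 24 called. The value was -1.52, -0.24 and -0.49 in the 3 clones, and the control clones differed from each other by 0.70. For Cdt1, with the highest 5′ end of the lists, control clones gave 94.5 and 70.7 FPKM and knockdown clones 13.9, 48.3 and 59.2, without overlap (log2 change -1.23, SE 0.64, adjusted p = 0.547, limma).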

How the data were processed

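HA-H3.3 ChIP-seq was measured in 2 libraries and set beside ChIP-seq of subunits and marks, peak lists and RNA-seq of the same series. The submitters' processing notes name Bowtie, bedtools, TopHat, Cufflinks, Cuffdiff and MACS2 with mouse build mm9, and the file header of the sequential list names MACS 2.1.1.20160309. The handling of duplicates and of input is not stated. The authors deposited levels as log2 values of RPKM, read as log2(RPKM + 1), coverage as the fraction of a region in peaks, and whole counts of gene features per region. The deposited peak lists give a score, or a fold enrichment with -log10 q from MACS per the file header, used only to filter or describe peaks. The deposited RNA tables hold FPKM per gene, without read counts.

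A region was taken as covered where its fraction was above 0. Reads per region were recovered from the levels, within 0.05 of a whole number, to give counting errors. Gene coverage was the summed product of fraction and overlap, with peaks taken as spread evenly in a region. Genes were given strand and 5′ ends from the RefSeq promoter table (GRCm38.p6, matched by symbol for 17596 of 23951 symbols), on mm9 loci from the RNA tables, and a region within 1 kb of the 5′ end decided the class. Marks and subunits had 1 library each. RNA was tested with limma 3.58.1 (R 4.3.3) on log2(FPKM + 1) keeping genes whose mean FPKM reached 1, two-sided, adjusted by Benjamini-Hochberg over all 11728 genes, and the method was tested on simulated data. Other values used python 3.11.15 with numpy 2.4.6, pandas 2.3.3 and scipy 1.17.1, and figures matplotlib 3.10.9. Without strand, overlapping genes cannot be separated.

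Groups came from the labels alone. Named regions are the 10 with the highest lower level of both replicates among shared regions of at least 500 bp, 5 without gene feature and 3 for each single replicate, and named list genes are the 2 highest and the lowest 5′ end of each of 15 lists with H3f3a, H3f3b and the sequential peaks. Others are described as chosen after their values were seen or illustrate a list. The members and lists were chosen with earlier results of these data known. Alternatives covered coverage thresholds, region length, mark scores, RNA filters and scaling, and leaving out each replicate. Input libraries were not used here.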

Additional observations from a re-analysis of the deposited data

How the results depend on the processing

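Of 73 recomputed values, 51 were counted as the same, within the SD between replicates or clones or within 1.5 times the count. The sequential peak shares without a replicate were judged by the binomial interval instead. Leaving out a replicate gave 46935 to 68523 regions in place of 41569, 12.9% to 15.4% at promoters, 27.5% to 37.0% with H3K4me3, 16.6% to 22.0% with H3K27ac, 17.6% to 24.0% with H3K9ac, 32.7% to 43.0% with any mark, 29.9% to 41.3% with subunits and 66.7% to 83.3% of sequential peaks. Regions of a single replicate cannot be counted without a replicate. With the 5′ UTR feature alone promoters were 3.16%. With 50% of the region in mark peaks, H3K27ac was at 2.34%, H3K9ac at 19.0% and any mark at 33.2%; with mark scores of at least 100 they were at 10.9%, 20.7% and 36.5%. Subunit shares were 34.9% and 15.9% at coverage of at least 0.25 and 0.5. Median control FPKM was 13.6 at coverage of at least 0.5, 12.6 to 13.1 without an HA-H3.3 replicate and 13.0 to 13.3 without a control clone. The cause of these shifts was not tested.

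The median knockdown change at occupied genes was -0.12 to -0.08 without each clone and -0.00669 with quantile scaling, which moved the median of all genes from -0.10 to -0.00648. Called genes with HA-H3.3 numbered 2 without the FPKM filter and 0 to 1 without each clone (1 without control clone 1); over all genes, limma called 4, but 56 without the filter, 6 with a pseudocount of 0.1, and 30, 28, 18, 14 and 8 without control clones 1 and 2 and knockdown clones 1, 2 and 3. A replicate block on the clone number gave a median of -0.11 with 0 called of all genes, but correlations of -0.25 and -0.10 between same-numbered clones do not show that the numbers pair them. Depth (13.6 and 18.4 M reads) limits weak regions most.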
